A study of Mus musculus with 2 samples.

Results

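The fibrillar collagens described here are 7 genes, chosen by name from the 31053 genes of the count tables: Col1a1, Col1a2, Col3a1, Col5a1, Col5a2, Col5a3 and Col11a1. They were measured by single-cell RNA sequencing of live cells sorted from mouse hearts at postnatal day 1 (P1) and postnatal day 7 (P7). Each age was represented by 1 library made from 3 hearts of the same litter, pooled before digestion. Collagenase II was applied for 20 minutes to P1 hearts and for 45 minutes to P7 hearts, and dead cells were gated out by their 7-AAD stain. The hearts came from intact (uninjured) mice. Their strain and genotype are not given in the sources used here, and no allele or agent is named that separates the groups. With 1 library per age no test between ages was possible, and age cannot be told apart from litter, sex of the pooled hearts or digestion time.

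Fibrillar collagens are secreted as triple-helical procollagens that are trimmed outside the cell, assemble into banded fibrils and are then cross-linked. Type I collagen, built from the products of Col1a1 and Col1a2, and type III collagen, built from Col3a1 chains alone, make up most of the interstitial matrix of the heart and are made chiefly by fibroblasts. Type V collagen, from Col5a1, Col5a2 and less often Col5a3, and type XI collagen, which contains the Col11a1 chain, are minor components that help to start fibrils and to limit their width.

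All 7 are protein-coding genes, and their positions are given on GRCm38 from the GENCODE M21 annotation. Col1a1 (ENSMUSG00000001506) lies at chr11:94936224-94953042 and Col1a2 (ENSMUSG00000029661) at chr6:4504814-4541544, both on the plus strand. Col3a1 (ENSMUSG00000026043), at chr1:45311538-45349706 on the plus strand, neighbours Col5a2 (ENSMUSG00000026042), at chr1:45374321-45503282 on the minus strand, with 24614 bases between them. Col5a1 (ENSMUSG00000026837) lies at chr2:27886425-28039514 on the plus strand, Col5a3 (ENSMUSG00000004098) at chr9:20770050-20815067 on the minus strand, and Col11a1 (ENSMUSG00000027966) at chr3:114030540-114220718 on the plus strand. Col1a2, Col3a1 and Col5a2 each share bases on their own strand with a predicted gene (Gm43921, Gm47302 and Gm38211), and the effect of that overlap on their counts was not tested.

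Col3a1, Col5a3 and Col11a1 were the members whose level in fibroblasts differed most between the ages, so the 250 bases before their RefSeq start (GRCm38.p6) are shown 5′ to 3′ on the gene's strand. Capitals mark a CCAAT box, searched as CCAAT and, on the other strand, ATTGG, letters that 33.8% of 32851 RefSeq windows of the same length hold. The windows lie at chr1:45311288-45311537 for Col3a1, chr9:20815068-20815317 for Col5a3 and chr3:114030290-114030539 for Col11a1.
Col3a1: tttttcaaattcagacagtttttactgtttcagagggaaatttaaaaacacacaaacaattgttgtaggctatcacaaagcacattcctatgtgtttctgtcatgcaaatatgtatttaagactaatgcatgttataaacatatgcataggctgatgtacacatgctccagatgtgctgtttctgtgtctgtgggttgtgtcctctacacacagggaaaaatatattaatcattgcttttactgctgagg
Col5a3: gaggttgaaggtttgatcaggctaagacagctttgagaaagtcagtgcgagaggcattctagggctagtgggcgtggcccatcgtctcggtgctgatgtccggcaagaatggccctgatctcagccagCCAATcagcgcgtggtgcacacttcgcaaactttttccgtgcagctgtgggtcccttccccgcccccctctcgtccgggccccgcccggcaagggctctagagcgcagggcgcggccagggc
Col11a1: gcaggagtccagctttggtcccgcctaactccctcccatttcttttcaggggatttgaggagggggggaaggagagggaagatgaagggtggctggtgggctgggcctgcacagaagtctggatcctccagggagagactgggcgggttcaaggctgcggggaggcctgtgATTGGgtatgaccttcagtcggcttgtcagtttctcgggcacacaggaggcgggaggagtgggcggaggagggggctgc
The Col3a1 window holds neither CCAAT nor the letters GGGCGG on either strand, and its GC content is 35.2%, against a median of 52.4% over all windows. The Col5a3 and Col11a1 windows hold 1 CCAAT match each, 122 and 79 bases before the start, 2 GGGCGG matches each, and 62.8% and 62.4% GC. GGGCGG in either orientation was found in 32.7% of all windows. A match is a description of the letters only, and 5 of the 7 members had a RefSeq window.

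After filtering, 4991 cells were kept at P1 and 8511 at P7, with a median of 10875 and 10104 UMIs (unique molecular identifiers, each standing for 1 captured transcript) per cell. The libraries differed in sex, with 57336 Xist UMIs at P1 and 12 at P7, and 0 Ddx3y UMIs at P1 and 7623 at P7. The libraries shared 13 barcodes among the kept cells. Cells with a UMI of a lung gene numbered 1043 at P1 and 331 at P7. The fibroblast ratios of Col3a1, Col5a3 and Col11a1 are also given without them, and for the other classes their removal was among the alternatives of the last section. Cell classes were set by marker gates of at least 1 UMI, none of which used a collagen: Pdgfra for fibroblasts, Fmod together with Scx for valve-type cells, Myh11 for smooth muscle, Kcnj8 for pericytes, Upk3b for epicardium, Cdh5 for endothelium and Csf1r for macrophages. All 5 further markers of each class were above 10 CPM (a gene's UMIs per 1000000 UMIs of the class) in that class at both ages. The 5 fibroblast markers were also all above 10 CPM in valve-type cells, smooth muscle, pericytes and macrophages at both ages, so this mark alone does not separate the classes.

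In the whole libraries, Col3a1 stood at 3154 CPM in the P1 library and 6209 CPM in the P7 library, and Col5a3 at 26.3 and 54.6 CPM. Values given in pairs from here on are P1 first and P7 second. Col11a1 went the other way, from 45.4 to 15.8 CPM. Of the 7 members 2 were past 1.5-fold higher at P7 and 1 was past 1.5-fold lower, where 7.3% and 12.3% of 15075 genes with at least 50 UMIs were past that fold in each direction. Col1a1 was at 2673 and 3573 CPM, Col1a2 at 2347 and 3133 CPM, Col5a1 at 384 and 392 CPM, and Col5a2 at 439 and 433 CPM, all 4 within 1.5-fold.

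Because a library's level depends on which cells it holds, the level was recomputed with the classes' shares of UMIs moved from P1 to P7 while levels within classes were held, and the reverse. For Col3a1 the log2 ratio between ages was 0.98 in all, 0.15 from the shares alone and 0.83 from the levels alone. For Col5a3 the same values were 1.05, 0.25 and 0.82, and for Col11a1 they were -1.53, -0.15 and -1.03. Most of the difference between libraries in these 3 genes was therefore found within classes as gated here. Cells that passed no gate or several gates counted as classes too, so a shift in their make-up would enter as a level. For Col11a1 the parts from shares and levels together fall short of the whole.

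Fibroblasts numbered 997 at P1 and 2074 at P7 and held 52.8% and 64.8% of all Col3a1 UMIs. Nearly every fibroblast had UMIs of Col1a1, Col1a2 and Col3a1 together, namely 985 of 997 cells (98.8%) at P1 and 2057 of 2074 (99.2%) at P7. The 7 members together took up 1.78% of the fibroblasts' UMIs at P1 and 2.44% at P7. A class holds the cells that passed its gate alone, except that cells with Fmod and Scx were valve-type whether or not they had Pdgfra. The 781 and 1320 cells that otherwise passed the gates of several classes were kept apart, and they held 26.8% and 21.6% of the Col3a1 UMIs.

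**Figure D1:**
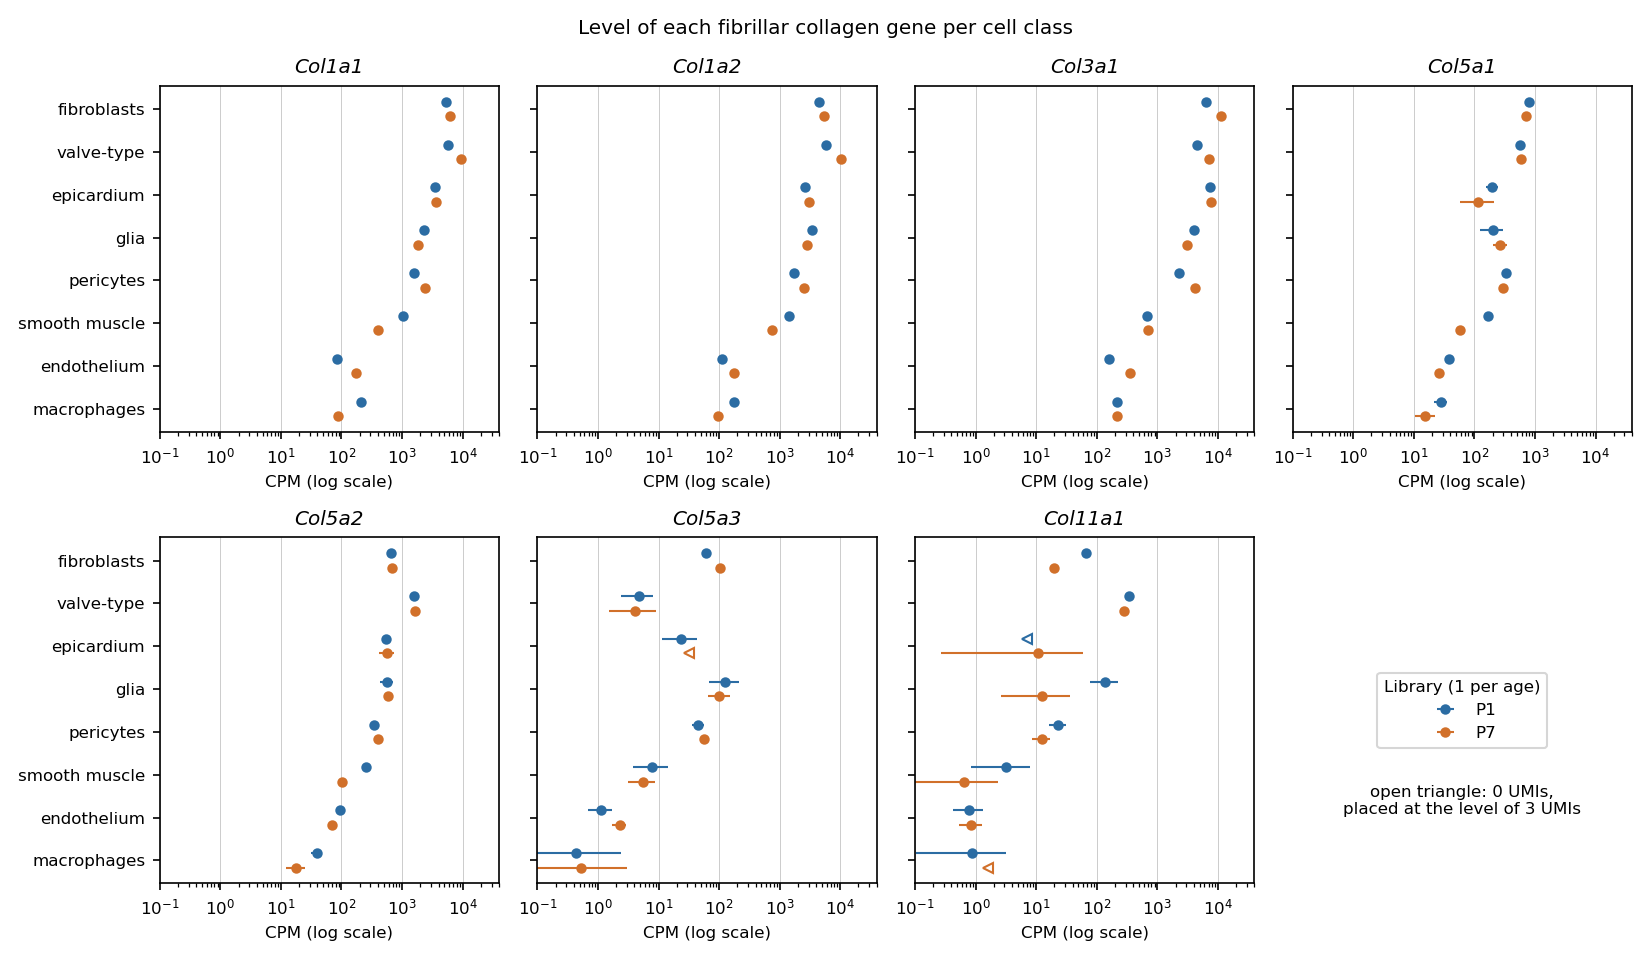
Level of each fibrillar collagen gene in the 7 cell classes and in glia at P1 (blue) and P7 (orange), in CPM on a log axis, with exact Poisson 95% intervals (counting error only) and open triangles for 0 UMIs at the level of 3 UMIs. Fibroblasts and valve-type cells are high for Col1a1, Col1a2 and Col3a1 at both ages, Col11a1 is highest in valve-type cells (344 and 280 CPM), and Col5a3 is low there (4.73 and 4.13 CPM).

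In fibroblasts the major chains did not move together. Col3a1, the type III chain, rose from 6395 CPM (95% interval 6355 to 6435) at P1 to 11269 CPM (11234 to 11305) at P7, a 1.76-fold difference. The median fibroblast held 5988 CPM of Col3a1 at P1 and 10442 CPM at P7, and the P1 median lay close to the lowest decile at P7, 5980 CPM. Intervals here are exact Poisson intervals on summed UMIs and cover counting error only, not the spread between hearts or litters.

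Col1a1, the main chain of type I collagen, was at 5401 CPM (5365 to 5438) and 6275 CPM (6249 to 6302), within 1.5-fold, with a log2 ratio of 0.22. Its partner Col1a2 was at 4417 and 5325 CPM, a log2 ratio of 0.27. Both type I chains were thus nominally higher at P7, by less than the fold used here.

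The type V chains diverged. Col5a1 was at 784 and 703 CPM, and Col5a2 at 662 and 694 CPM, both within 1.5-fold. Col5a3, a type V chain found in fewer tissues than the others, rose from 60.2 CPM (56.4 to 64.2) to 104 CPM (100.4 to 107), a 1.72-fold difference. A Col5a3 UMI was found in 398 of 997 fibroblasts (39.9%, Clopper-Pearson 95% interval 36.9% to 43.0%) at P1 and 1333 of 2074 (64.3%, 62.2% to 66.3%) at P7, with median depths of 14638 and 16612 UMIs per cell. With every cell thinned to 2000 UMIs the shares were 11.3% and 17.0%. In macrophages, taken to lack these genes, 0.44% and 0.53% of cells had a Col5a3 UMI at median depths of 8446 and 9714 UMIs.

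Col11a1, best known as a cartilage collagen chain, fell from 66.1 CPM (62.1 to 70.3) to 19.8 CPM (18.3 to 21.3), 3.34-fold lower at P7. A Col11a1 UMI was found in 382 fibroblasts (38.3%, 35.3% to 41.4%) at P1 and 348 (16.8%, 15.2% to 18.5%) at P7, and after thinning in 10.3% and 3.80%. Macrophages with a Col11a1 UMI numbered 2 of 225 at P1 and 0 of 188 at P7, which allows a level of up to 1.60 CPM at 3 UMIs. In fibroblasts, then, 2 of the 7 members were past 1.5-fold higher and 1 past 1.5-fold lower, where 8.29% and 9.21% of 12495 genes were past that fold in each direction, and the median log2 ratio was 0.22 for the members and -0.02 for all genes. Past a fold of 2 there were 0 members higher and 1 lower, against 3.82% and 4.11% of genes.

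**Figure D2:**
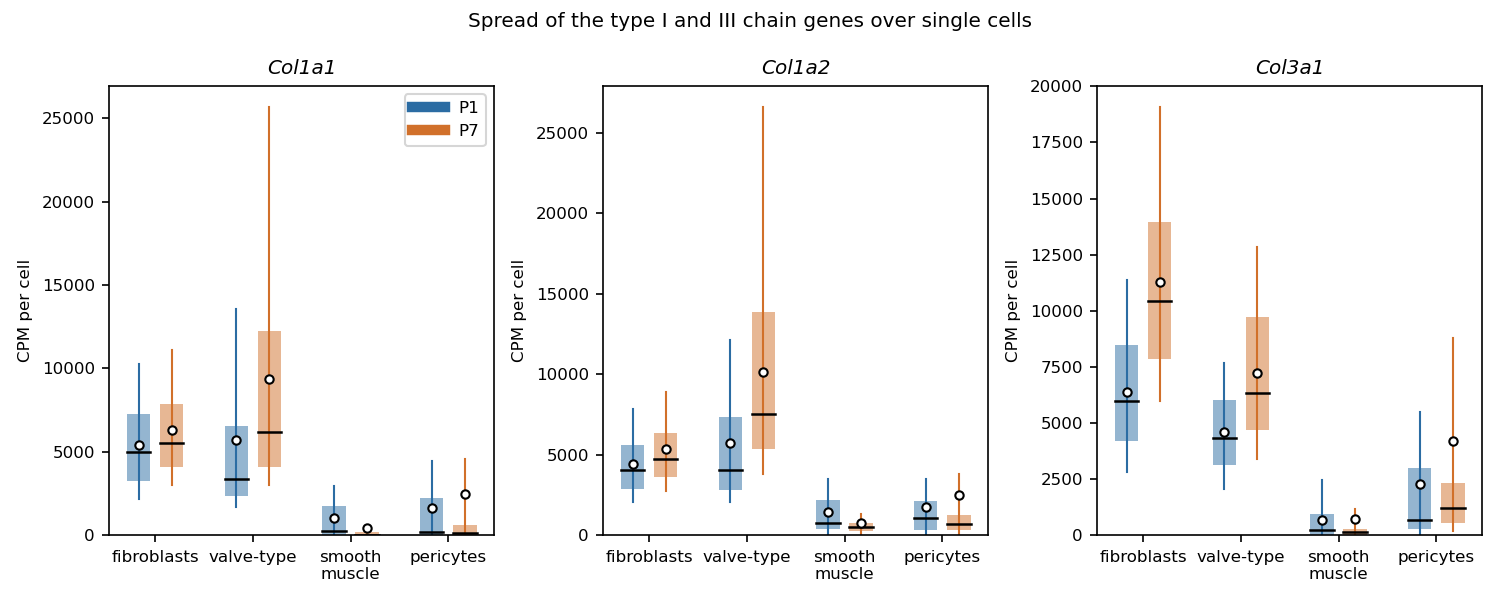
Level of Col1a1, Col1a2 and Col3a1 in single cells of 4 classes at P1 (blue) and P7 (orange), in CPM of each cell, with the median (bar), the quartiles (box), the lowest and highest deciles (line) and the level of the summed class (circle). In fibroblasts the Col3a1 boxes lie further apart (median cell 5988 and 10442 CPM) than those of Col1a1 (4961 and 5545 CPM), and in pericytes the summed level of Col1a1 lies far above the median cell.

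Other properties of the fibroblasts differed between the ages beside these genes. The summed level of 5 fibroblast markers outside the collagens (Tcf21, Dpt, Dcn, Lum and Gsn) was 11104 CPM at P1 and 19687 CPM at P7. The lung genes summed to 16.9 and 1.7 CPM in fibroblasts, and without the cells that carried them the log2 ratios were 0.80 for Col3a1, 0.73 for Col5a3 and -1.71 for Col11a1. Of 21 genes known to respond to enzymatic digestion, 6 were past 1.5-fold higher at P7 and 2 lower, against 8.29% and 9.21% of all fibroblast genes. The median log2 ratio of the 21 was -0.16. Among those past the fold were Klf2 at 459 and 1362 CPM, Dusp1 at 213 and 418 CPM, and Zfp36 at 193 and 110 CPM. Fos was at 1216 and 1090 CPM. The part of digestion time in the collagen levels was not tested.

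Fibroblasts were next split by genes outside the family, called sub-gates here. Most of them, 585 of 997 at P1 and 1495 of 2074 at P7, passed several sub-gates and held 6836 and 11469 CPM of Col3a1. Col3a1 was higher at P7 in every sub-gate: in cells with only Pi16 or Clec3b, genes of adventitial-type fibroblasts, it was 5993 CPM in 44 cells at P1 and 10450 CPM in 336 cells at P7. In cells with only Col26a1 or Dpep1 it was 5775 CPM in 250 cells and 11709 CPM in 168 cells. Col5a3 in the same sub-gates was 26.9 and 109 CPM, and 46.4 and 66.3 CPM, the first pair resting on 13 UMIs at P1. The second pair, 1.43-fold, was within 1.5-fold.

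Col11a1 was 22.8 and 10.5 CPM in the cells with only Pi16 or Clec3b, and 97.2 and 43.4 CPM in the cells with only Col26a1 or Dpep1. It was therefore lower at P7 in both, and higher in the Col26a1 or Dpep1 cells at each age. In the cells that passed none of the sub-gates Col11a1 was nominally higher at P7. It stood there at 33.7 CPM in 100 cells and 55.4 CPM in 64 cells, on 24 and 27 UMIs. The log2 interval, -0.13 to 1.57, includes 0.

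Dividing fibroblasts, with UMIs of both Mki67 and Top2a, numbered 84 at P1 and 136 at P7. Their Col3a1 level was 5699 and 9249 CPM, against 6633 and 11626 CPM in the 827 and 1791 cells with neither gene. As CPM, a share of UMIs, Col3a1 was thus lower in dividing cells at both ages, and these cells also showed the difference between ages. Summed Col3a1 UMIs were 11581 and 28945 in dividing cells and 77131 and 337057 in the others. Dividing cells therefore had more Col3a1 UMIs per cell at both ages, and the part of depth in this was not tested. For Col1a1 the levels were 4430 and 5042 CPM in dividing cells and 5704 and 6492 CPM in the others. Col5a3 was at 51.2 and 67.1 CPM in dividing cells, 1.31-fold and so within 1.5-fold, and at 61.1 and 108 CPM in the others, 1.77-fold.

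Within fibroblasts the major chains varied together from cell to cell. After thinning to 2000 UMIs, Pearson's r over cells was 0.65 at P1 and 0.64 at P7 for Col1a1 with Col1a2, and 0.63 and 0.68 for Col1a1 with Col3a1, over 954 and 2051 cells. Cells of 1 library share its depth and handling, so these values describe the cells. For Col5a3 with Col11a1 r was -0.02 and 0.03, and UMIs of both were found in 192 cells at P1 and 220 at P7. Fibroblasts with a Col11a1 UMI at P7 held 7769 CPM of Col1a1 and 13577 CPM of Col3a1, against 5954 and 10774 CPM in those without, at median depths of 17167 and 16524 UMIs. At P1 the same levels of Col1a1 were 5242 and 5531 CPM, in the opposite order, at median depths of 16781 and 13155 UMIs. Those of Col3a1 were 6603 and 6226 CPM, in the same order as at P7.

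Valve-type cells, which express the tendon and valve genes Fmod and Scx, numbered 176 at P1 and 89 at P7. They were the class with the highest Col11a1 level, 344 CPM (321 to 368) at P1 and 280 CPM (254 to 309) at P7, a difference within 1.5-fold. They held 32.6% and 26.5% of all Col11a1 UMIs. The lung genes summed to 68.9 and 2.76 CPM in valve-type cells. Col5a3 was at 4.73 and 4.13 CPM in them, on 12 and 6 UMIs, so the class highest for Col11a1 was among the low classes for Col5a3.

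Type I collagen rose in valve-type cells. Col1a1 went from 5677 to 9341 CPM, 1.65-fold, Col1a2 from 5730 to 10135 CPM, 1.77-fold, and Col3a1 from 4604 to 7240 CPM, 1.57-fold. These 3 of the 6 members with at least 50 UMIs were past 1.5-fold higher and 0 were past it lower, where 6.53% and 8.87% of 7703 genes were past it. Col5a1 was at 565 and 582 CPM and Col5a2 at 1600 and 1631 CPM, so both were at nearly the same level at the ages compared. With a gate of at least 2 UMIs the log2 ratios of Col1a1 and Col3a1 were 0.55 and 0.44, both within 1.5-fold, and without the 5% of cells with the most genes that of Col3a1 was 0.56, also within it. Col1a2 was past 1.5-fold under all 12 alternatives.

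Within the valve-type cells the levels were uneven. The median cell held 3356 CPM of Col1a1 at P1 and 6203 CPM at P7, and the highest decile began at 13547 and 25663 CPM. Cells with a UMI of Comp, a matrix protein of tendon and cartilage, numbered 13 and 20, a split made after the values were seen. They held 15240 and 16871 CPM of Col1a1 and 1237 and 725 CPM of Col11a1, against 4714 and 7260 CPM of Col1a1 and 254 and 157 CPM of Col11a1 in the 163 and 69 cells without Comp. The cells with Comp made up 13 of 176 at P1 and 20 of 89 at P7. Col11a1 was past 1.5-fold lower at P7 both with Comp (1.70-fold) and without it (1.61-fold), though not over all valve-type cells.

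**Figure D3:**
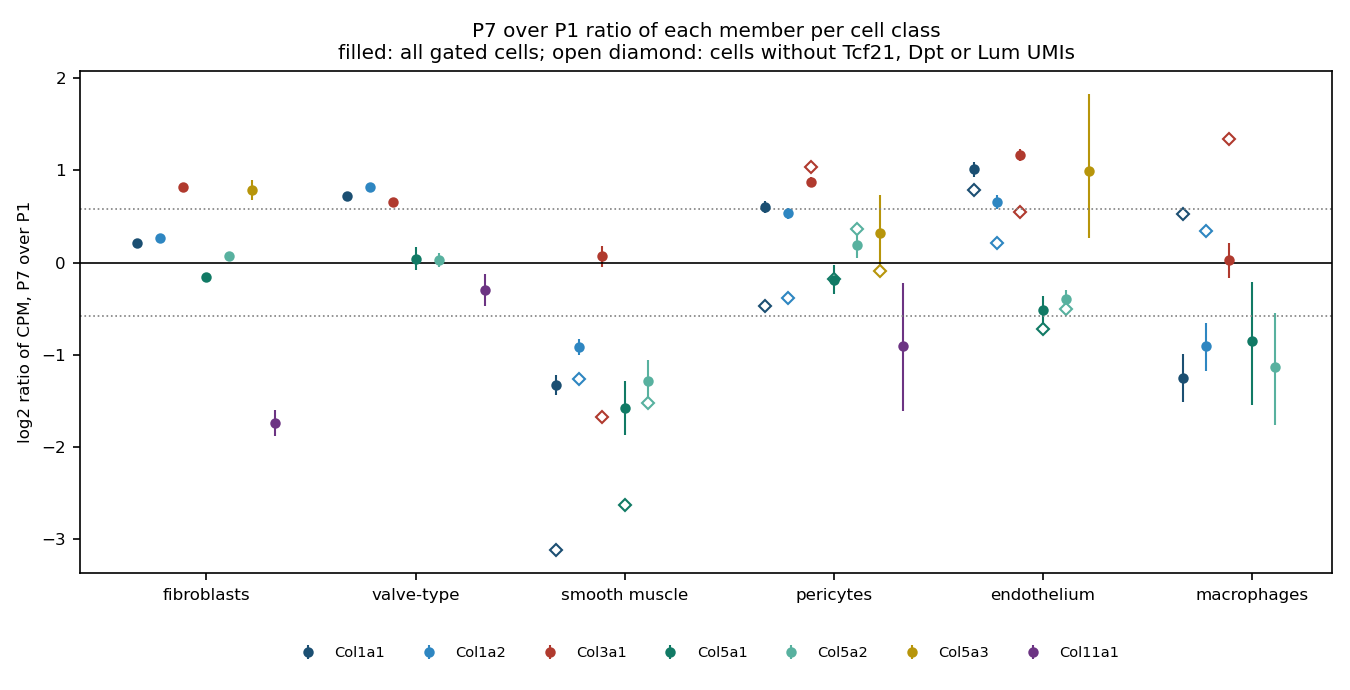
Log2 ratio of each member with at least 50 UMIs, P7 over P1, in 6 cell classes, with exact 95% intervals for counting error, dotted lines at 1.5-fold and open diamonds for cells without a UMI of Tcf21, Dpt or Lum. Col3a1 lies past the upper line in fibroblasts (0.82), valve-type cells (0.65), pericytes (0.88) and endothelium (1.17, and 0.55 as a diamond). In macrophages the diamond of Col3a1 lies past that line (1.34). Col1a1 lies past the lower line in smooth muscle (-1.33) and macrophages (-1.25, and 0.53 as a diamond).

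Smooth muscle cells, 121 at P1 and 309 at P7, differed from the connective tissue classes. Col1a1 fell from 1024 CPM (969 to 1081) to 407 CPM (385 to 431), Col1a2 from 1423 to 755 CPM, Col5a1 from 170 to 57.1 CPM and Col5a2 from 253 to 104 CPM. Col3a1 was at 674 and 706 CPM. Of the 5 members with at least 50 UMIs, 4 were past 1.5-fold lower and 0 higher, where 10.1% and 8.8% of 7928 genes were past that fold. The median log2 ratio was -1.28 for the members and -0.01 for all genes. The same 4 members were past 1.5-fold lower in macrophages and lymphocytes, both taken to lack these genes. There 6.33% of 7347 and 17.8% of 5050 genes were past it lower.

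The Col1a1 UMIs of smooth muscle were spread over many cells at P1 and over few at P7. Cells above 1000 CPM of Col1a1 made up 42 of 121 (34.7%) at P1 and 22 of 309 (7.12%) at P7, and the 5% of cells with the most Col1a1 held 28.2% and 69.1% of its UMIs. The median cell held 235 CPM at P1 and 0 at P7. After thinning, 51.4% and 19.2% of smooth muscle cells had a Col1a1 UMI, against 9.66% and 11.2% of macrophages.

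Markers of other classes moved in smooth muscle too. The fibroblast markers summed to 1154 CPM at P1 and 1926 CPM at P7, with Dcn at 232 and 630 CPM, and the cardiomyocyte markers to 988 and 137 CPM, with Tnnt2 at 749 and 108 CPM. In the 81 and 183 cells without a UMI of Tcf21, Dpt or Lum, a split chosen after the values were seen, all 5 members were past 1.5-fold lower, where 11% of 6015 genes were, with Col1a1 at 776 and 88.9 CPM and Col3a1 at 466 and 146 CPM. In the 24 and 164 cells without a UMI of Tnnt2, Actc1 or Myh6, 3 were past it, where 18.2% of 4855 genes were. When every Myh11 cell was counted, whatever other gates it passed, none of the 4 members named above was past 1.5-fold lower: Col11a1 alone was past it lower and Col5a3 alone higher, where 7.54% and 7.2% of 10801 genes were, and the median log2 ratio was -0.11.

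Pericytes, the mural cells of capillaries, numbered 190 at P1 and 326 at P7. Col1a1 was at 1603 and 2438 CPM, Col1a2 at 1718 and 2488 CPM, and Col3a1 at 2278 and 4190 CPM. Col1a1 and Col3a1 were past 1.5-fold higher and Col11a1, on 41 and 34 UMIs, past it lower, where 6.7% and 6.25% of 8460 genes were past it in each direction. At least 5 UMIs of the fibroblast marker Dcn were found in 29.5% and 19.3% of these cells, and the source of those UMIs was not tested. The lung genes summed to 151 and 13.7 CPM in pericytes.

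In the 82 and 125 pericytes without a UMI of Tcf21, Dpt or Lum the levels were much lower and the picture changed. Col1a1 was at 180 and 130 CPM there, so its direction turned, and Col1a2 was at 713 and 547 CPM. Col3a1 was still higher at P7, at 466 and 958 CPM, 2.05-fold. Col5a3 was at 57.0 and 53.8 CPM in these cells, near its level in all pericytes, 45.1 and 56.4 CPM. A Col5a3 UMI was found in 25.8% and 29.1% of all pericytes, against 0.44% and 0.53% of macrophages. Col11a1 in these pericytes was down to 2 and 0 UMIs.

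Epicardium, the outer lining of the heart, was represented by 30 cells gated by Upk3b at P1 and 7 at P7. The lung genes summed to 200 and 10.6 CPM in this class, at P1 the highest sum of the 7 classes. How many of these cells came from lung was not tested. Col3a1 was at 7389 and 7723 CPM and Col1a1 at 3547 and 3576 CPM. Of 5 members with at least 50 UMIs, Col5a1 alone was past 1.5-fold, at 198 and 116 CPM on 83 and 11 UMIs with a log2 interval of -1.82 to 0.15, where 14.4% of 1706 genes were past it higher and 16.9% lower. Col11a1 had 0 UMIs at P1 and 1 at P7. With all cells of at least 2 Upk3b UMIs, 50 and 31 cells, Col1a1 was at 4698 and 3226 CPM and Col3a1 at 8718 and 9447 CPM. The lung gene Hoxa5 was at 133 and 27.9 CPM in them, with a UMI in 23 and 3 cells.

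Endothelium taken as a whole gave low levels of every member. Col1a1 was at 85.2 and 172 CPM in 1621 and 3118 cells, and 27.2% and 34.0% of cells had a UMI of it, against 24.9% and 36.2% of macrophages. After thinning the shares were 8.37% and 13.4% in endothelium and 9.66% and 11.2% in macrophages, so Col1a1 lay close to the background there. Col3a1 was at 157 and 352 CPM, against 212 and 215 CPM in macrophages. In endothelium 4 of 6 members were past 1.5-fold higher and 0 lower, where 7.87% and 7.66% of 12170 genes were past it, and the 5% of cells with the most Col1a1 held 74.0% and 77.0% of its UMIs. In the 1278 and 2097 cells without a UMI of Tcf21, Dpt or Lum, Col3a1 was at 76.2 and 112 CPM and Col1a2 at 53.0 and 61.6 CPM, both within 1.5-fold. Col1a1 was still past it there, at 31.4 and 54.2 CPM, 1.72-fold. Macrophages without a UMI of these 3 markers held Col3a1 at 45.4 and 115 CPM, so at P7 endothelial Col3a1 lay close to the background.

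Over all endothelial cells, Col5a2 stood apart from that background at both ages. Col5a2 was found in 39.2% (36.8% to 41.6%) and 30.6% (29.0% to 32.2%) of endothelial cells, and in 11.1% (7.32% to 16.0%) and 11.7% (7.48% to 17.2%) of macrophages. In cells without a UMI of Tcf21, Dpt or Lum, Col5a2 was at 76.5 and 53.9 CPM in endothelium and at 10.7 and 12.9 CPM in macrophages, while Col1a1 was at 31.4 and 54.2 CPM in endothelium and 30.4 and 43.9 CPM in macrophages. Col5a1 in these cells was at 21.4 (19.04 to 24.0) and 13.0 (11.3 to 14.9) CPM in endothelium and at 7.76 (4.13 to 13.3) and 6.88 (2.97 to 13.6) CPM in macrophages, so its intervals were apart at P1 and overlapped at P7, where macrophages held 8 UMIs. Endothelial cells with Npr3, a gene of the endocardium, held the most Col5a2, 222 CPM in 176 cells and 254 CPM in 48 cells. Cells with Aplnr, a capillary and vein gene, held 67.8 and 65.5 CPM. The Npr3 cells also held Col1a2 at 220 and 472 CPM, with a UMI in 70.5% and 89.6% of cells. Their Col3a1 was at 315 and 467 CPM, with a UMI in 61.9% and 83.3%. All macrophages held Col1a2 at 178 and 94.6 CPM and Col3a1 at 212 and 215 CPM. Npr3 cells with fibroblast markers were not left out of these levels.

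Macrophages served as the class taken to lack fibrillar collagen. Col1a1 was at 211 and 88.7 CPM in 225 and 188 cells, and the 5% of cells with the most held 89.1% and 60.2% of its UMIs. Of 5 members 4 were past 1.5-fold lower, where 6.33% of 7347 genes were, and 0 were past it higher, where 8.28% were. In the 176 and 122 macrophages without a UMI of Tcf21, Dpt or Lum, Col1a1 was nominally higher at P7, at 30.4 and 43.9 CPM. These levels rest on 51 UMIs each, and the log2 interval, -0.06 to 1.12, includes 0. Col3a1 in the same macrophages was higher at P7, at 45.4 and 115 CPM on 76 and 134 UMIs. Its log2 ratio was 1.34, with an interval of 0.93 to 1.77.

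Cells outside the 7 classes were counted apart. In the cells that passed several gates, 2 members were past 1.5-fold higher (Col3a1 and Col5a3) and 1 lower (Col11a1), as in fibroblasts, where 6.92% and 7.96% of 12792 genes were past it. In the 805 and 797 ungated cells, in which the fibroblast markers summed to 5087 and 13846 CPM and the lung genes to 2567 and 2.4 CPM, 4 members were past it higher and 1 lower, where 10.3% and 13.2% of 10673 genes were. In 35 and 263 lymphocytes, also taken to lack these genes, 4 of 5 members were past 1.5-fold lower and 0 higher. Of 5050 genes, 17.8% were past it lower and 21.3% higher. In the 26 and 179 lymphocytes without a UMI of Tcf21, Dpt or Lum, Col1a1 was at 67.1 and 107 CPM. Col3a1 was at 50.3 and 161 CPM in them, on 6 and 171 UMIs, with a log2 interval of 0.53 to 3.15.

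Glia, gated by Sox10, numbered 10 cells at P1 and 20 at P7 and held UMIs of all 7 members. Col3a1 was at 4068 and 3063 CPM, Col1a2 at 3389 and 2870 CPM, and Col1a1 at 2292 and 1840 CPM, with Dcn at 63.4 and 75.4 CPM. None of the 5 members with at least 50 UMIs was past 1.5-fold, where 11.2% and 9.99% of 1191 genes were past it higher and lower. Col5a3 was found in 5 of 10 and 13 of 20 of these cells, and Col11a1 had 15 UMIs at P1 and 3 at P7.

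The balance between chains was compared between classes and ages, since the capture of a given gene is common to all of them. The UMI ratio of Col3a1 to Col1a1 in fibroblasts went from 1.18 (1.17 to 1.19) at P1 to 1.80 (1.79 to 1.81) at P7. In smooth muscle this ratio went from 0.66 to 1.73. In macrophages, taken to lack these genes, it went from 1.004 (0.884 to 1.141) to 2.428 (2.021 to 2.927). It was higher at P7 in lymphocytes too, also taken to lack these genes. The part of the background in the smooth muscle shift was not tested. In valve-type cells the ratio of Col3a1 to Col1a1 was 0.81 and 0.78, below its value in fibroblasts at each age. The ratio of Col1a1 to Col1a2 was 1.22 and 1.18 in fibroblasts, 0.99 and 0.92 in valve-type cells and 0.72 and 0.54 in smooth muscle, so fibroblasts had the most Col1a1 for each Col1a2 UMI of these 3 classes at both ages.

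The type V chains separated the classes further. Col5a2 to Col5a1 was 0.84 (0.82 to 0.87) and 0.99 (0.97 to 1.01) in fibroblasts, 2.83 and 2.80 in valve-type cells, and 2.48 and 2.70 in endothelium. Valve-type cells and endothelium thus held over 2 times more Col5a2 for each Col5a1 UMI than fibroblasts, at both ages, with intervals that did not overlap those of fibroblasts. The ratio was high too in epicardium, 2.70 and 4.82, the latter on 53 and 11 UMIs, and in glia, 2.82 and 2.22. Smooth muscle was at 1.48 and 1.82. Pericytes were closer to fibroblasts, at 1.04 and 1.34.

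**Figure D4:**
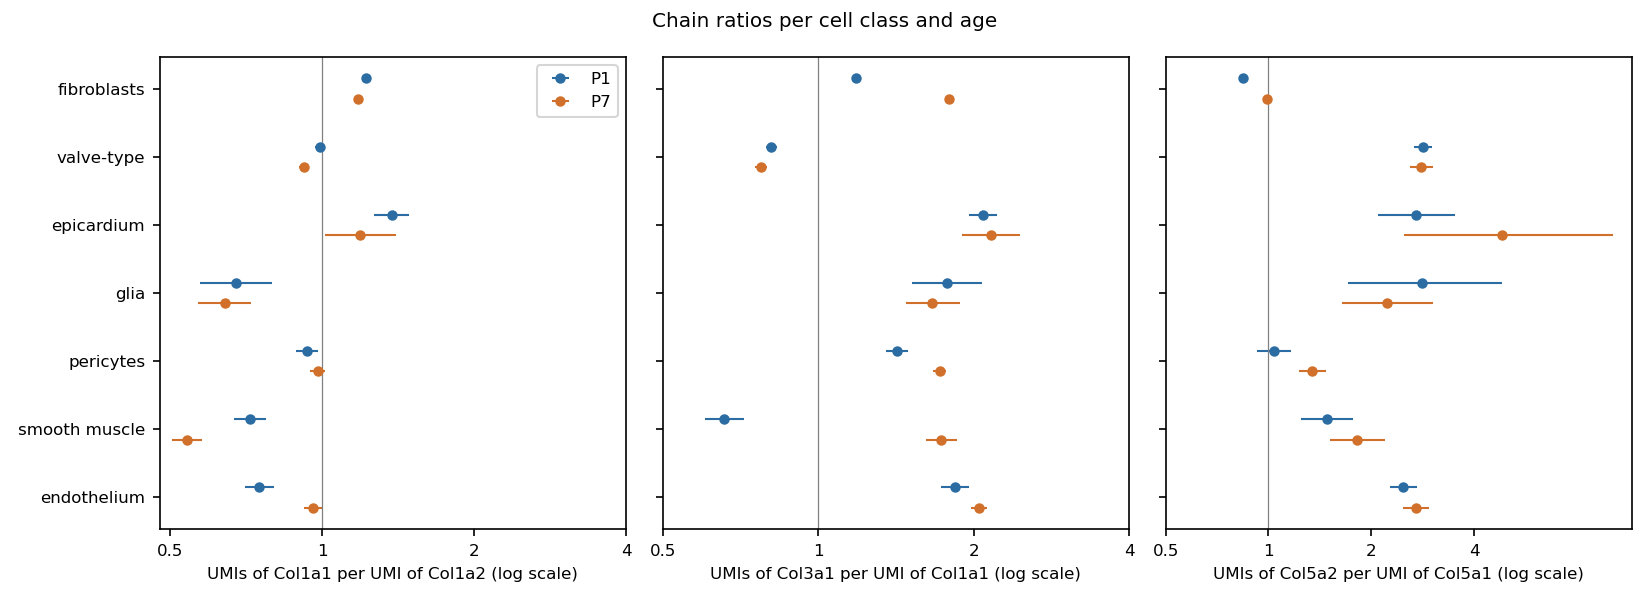
UMI ratios of Col1a1 to Col1a2, Col3a1 to Col1a1 and Col5a2 to Col5a1 in 6 of the cell classes and in glia at P1 (blue) and P7 (orange), on log axes, with exact 95% intervals for counting error. Col3a1 to Col1a1 in fibroblasts moves from 1.18 to 1.80 and stays near 0.8 in valve-type cells, and Col5a2 to Col5a1 is near 2.8 in valve-type cells and below 1 in fibroblasts.

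The genes most like each member in pattern were found by Pearson's r of log2(CPM + 10) over the 14 sums of 7 classes and 2 ages, among 12403 genes, with the 7 members left out of the ranking. These sums share libraries and depth, and r is given as a description. Col1a1 and Col1a2 had r = 0.990 with each other, above any gene outside the family. For Col1a1 the closest outside genes were Col16a1 (0.988), B3gnt9 (0.979) and Mmp23 (0.979), and for Col1a2 Thbs2 (0.986), Col16a1 (0.985) and Scarf2 (0.984). Col3a1 was most like Gas1 (0.986), Fbln1 (0.971) and Glis2 (0.969), and Col5a1 most like Col6a1 (0.977), Prrc1 (0.974) and Col6a3 (0.970). Col5a2 was most like Nfix (0.977), Glt8d1 (0.974) and Mfap2 (0.969). Col5a3, most like Epb41l2 (0.941), Apc2 (0.935) and Anpep (0.935), had no gene as close to it as the other members had, and Col11a1 was most like Kcns1 (0.967), Matn4 (0.966) and Scube2 (0.964).

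Genes that build, trim, bind and degrade fibrils were read in fibroblasts beside the members, by lists of known roles. Each list's count is to be read beside the 8.29% of all fibroblast genes that were past 1.5-fold higher and the 9.21% that were past it lower. Of 20 genes for chain modification and folding, 1 was past 1.5-fold higher and 4 lower, with a median log2 ratio of -0.08. P4ha2, a subunit of prolyl hydroxylase, rose from 27.5 to 43.3 CPM, and its relative P4ha3 fell from 38.5 to 11.6 CPM. P3h2, another prolyl hydroxylase, fell from 22.6 to 10.3 CPM, Tmem38b, an endoplasmic reticulum channel, from 45.7 to 27.8 CPM, and Colgalt2, a collagen sugar transferase, from 14.2 to 9.46 CPM. Serpinh1, the collagen chaperone, was at 935 and 1377 CPM, just under 1.5-fold, and Ppib, a proline isomerase, at 1640 and 1534 CPM. None of 10 secretion genes was past 1.5-fold, and their median was 0.12.

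Of 15 genes for procollagen processing and crosslinking, 11 had at least 50 UMIs, 3 were past 1.5-fold higher and 1 lower. Pcolce2, an enhancer of procollagen trimming, rose from 22.6 to 98.6 CPM, and Loxl1, a lysyl oxidase, from 400 to 655 CPM. Tll2 rose from 1.43 to 3.94 CPM on 22 and 137 UMIs. Adamts14, an aminoprocollagen peptidase, fell from 23.6 to 11.6 CPM. Pcolce was at 668 and 793 CPM.

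Of 6 fibril-associated collagens with at least 50 UMIs, Col14a1 rose from 526 to 814 CPM and 4 fell. The type IX chains, like Col11a1 known from cartilage, were among them: Col9a2 fell from 90.8 to 33.4 CPM, Col9a3 from 9.18 to 1.61 CPM and Col9a1 from 8.26 to 0.66 CPM. Col12a1 fell from 33.3 to 16.7 CPM, and Col16a1 was at 73.5 and 98.0 CPM. Of the other fibrillar collagens, Col24a1 fell from 6.31 to 3.68 CPM on 97 and 128 UMIs, and Col27a1 was at 44.6 and 42.1 CPM.

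Of 6 genes for degradation and uptake with at least 50 UMIs, 2 were higher and 0 lower past 1.5-fold. Fap, a fibroblast protease, rose from 16.7 to 46.6 CPM, and Ctsk, a lysosomal collagenase, from 66.1 to 106 CPM, while Mmp2 was at 609 and 620 CPM and Mmp14 at 498 and 386 CPM. Of 6 collagen receptors with at least 50 UMIs, 3 were past 1.5-fold higher and 0 lower. Ddr2, a collagen-binding tyrosine kinase, rose from 59.1 to 89.1 CPM, and Itga2 from 2.02 to 3.80 CPM on 31 and 132 UMIs. Itga11 was at 0.91 and 1.41 CPM on 14 and 49 UMIs, a log2 ratio of 0.59 whose interval, -0.25 to 1.60, includes 0. Itgb1 was at 592 and 603 CPM and Itga1 at 79.7 and 95.1 CPM.

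**Figure D5:**
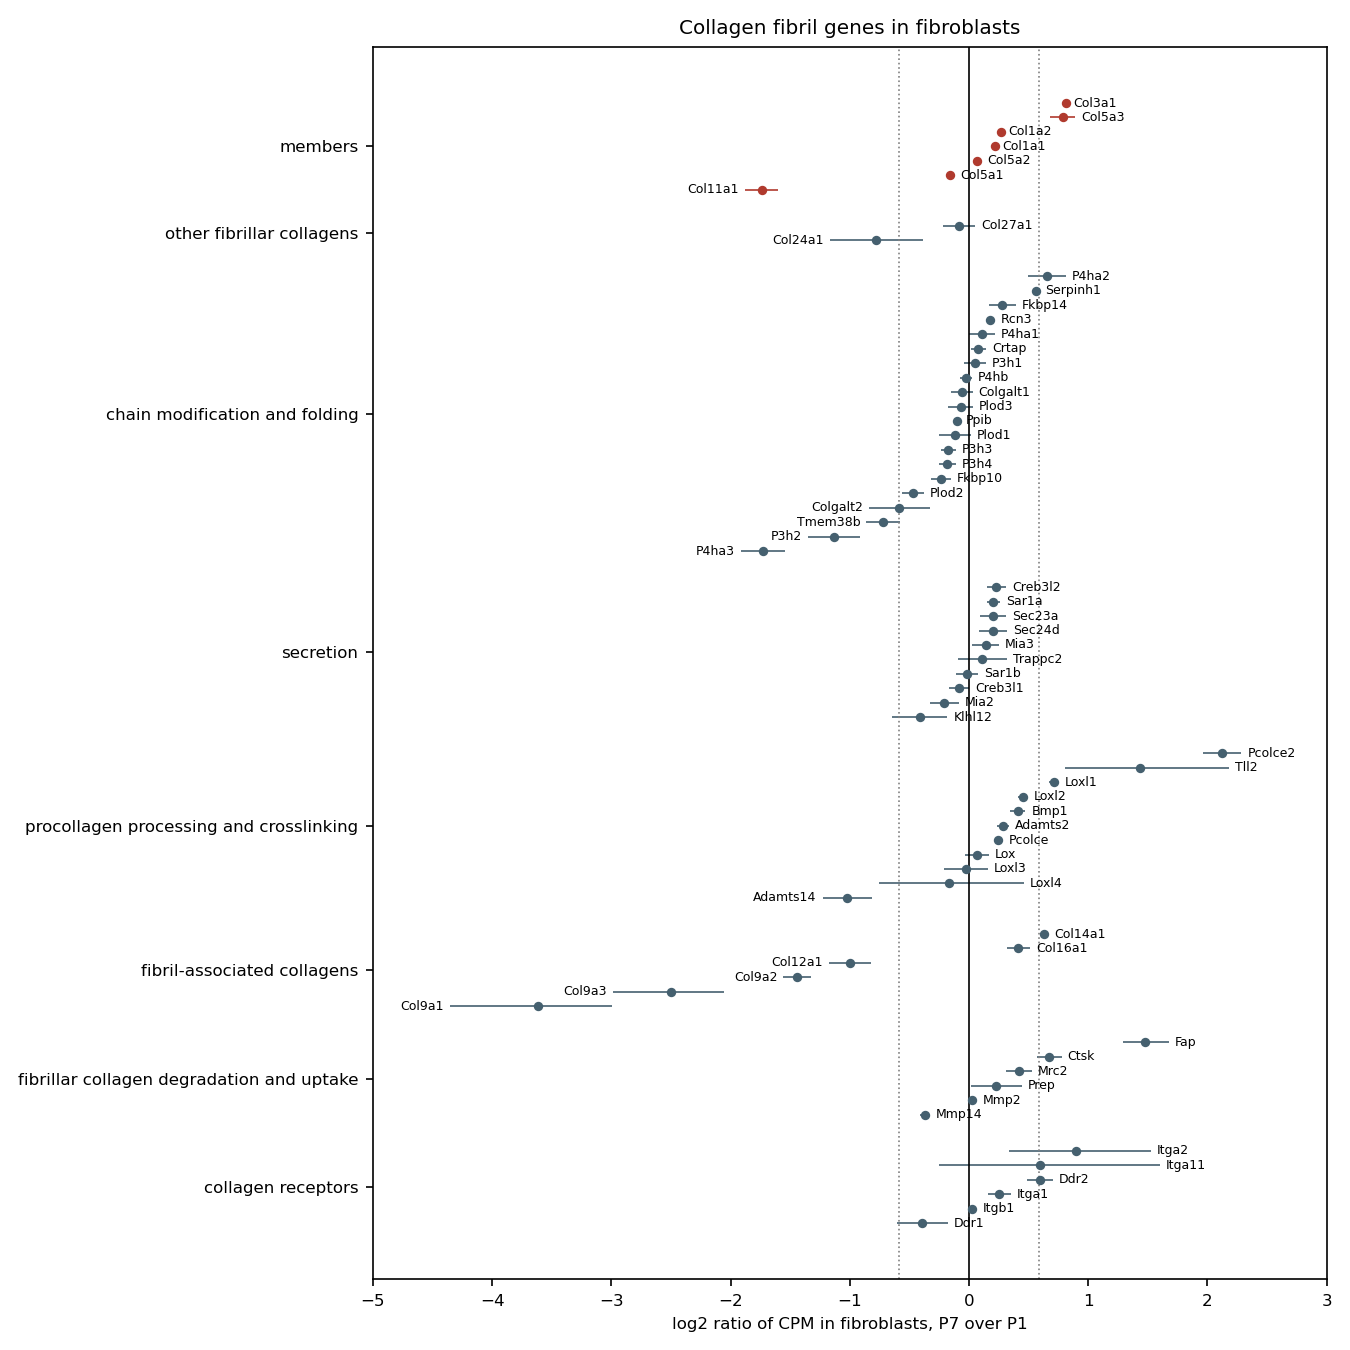
Log2 ratio P7 over P1 in fibroblasts of the 7 members and of the listed genes of collagen folding, secretion, processing, degradation and binding, with exact 95% intervals for counting error and dotted lines at 1.5-fold. Col11a1 (-1.74), P4ha3 (-1.73) and the type IX collagens lie below the lower line, and Col3a1 (0.82), Pcolce2 (2.12) and Fap (1.48) lie above the upper line.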

How the data were processed

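Single-cell RNA was measured in live cells of P1 and P7 mouse hearts, 1 library per age, with groups taken from the labelled developmental stage. The authors deposited unnormalized UMI counts per gene and barcode, made with Cell Ranger 3.1.0 on mm10/GRCm38 per the submitters' processing notes. The files held 7836 and 9077 barcodes; those with 200 to 8000 genes and at most 20% mitochondrial UMIs were kept. No column of values was left unused. No doublet caller was run: cells passing several gates were kept apart, and the 5% of cells with the most genes were left out in an alternative.

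UMIs were summed per class and library in python 3.11.15 with numpy 2.4.6, scipy 1.17.1, pandas 2.3.3 and matplotlib 3.10.9. Ratios of CPM have 0.5 counts added and exact conditional binomial intervals (95%); shares of cells have Clopper-Pearson intervals. A gene was called past a fold of 1.5 with at least 50 summed UMIs. Depth was 59026295 and 97432007 UMIs in the kept cells, so low-count members carry wide intervals. The ratio, its interval and the thinning were tested on simulated counts with counting error alone. Gates, doublets and background were not simulated.

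The members and gene lists were chosen with earlier results of these data known. Named genes were the 7 members; from each list at most the 5 largest past 1.5-fold in fibroblasts and the 2 with the most UMIs; and the 3 genes most like each member among those with at least 200 UMIs.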

Additional observations from a re-analysis of the deposited data

Results flagged for a closer look

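Col1a1 and Col1a2, the type I collagen chains, moved in opposite directions between ages in different cell classes. The log2 ratio of Col1a1, P7 over P1, was 0.72 in valve-type cells, 0.60 in pericytes and 1.01 in endothelium, and -1.33 in smooth muscle and -1.25 in macrophages. The ratio of Col1a2 was 0.82 in valve-type cells and 0.66 in endothelium, and -0.91 in both smooth muscle and macrophages. These differences between classes were not tested, because each age had 1 library. Without cells with a UMI of Tcf21, Dpt or Lum the ratio of Col1a1 was -0.47 in pericytes and 0.53 in macrophages, nominally the other direction in each. The macrophage interval, -0.06 to 1.12, includes 0. In smooth muscle the ratio of Col1a1 was -3.12 and in endothelium 0.78, the same direction as before. With every Myh11 cell counted, however, the smooth muscle ratios were -0.085 for Col1a1 and -0.11 for Col1a2, both within 1.5-fold. With a gate of at least 2 UMIs the ratio of Col1a1 in pericytes was -0.053. Macrophages were taken to lack these genes, and Col1a1 in endothelium lay close to the background.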

How the results depend on the processing

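No paired analysis was possible because each age had 1 library, and for the same reason no replicate could be left out. Up to 12 alternatives fixed at the start and 2 chosen after seeing the data (without cells with Tcf21, Dpt or Lum, and without cells with Tnnt2, Actc1 or Myh6) were computed for 41 log2 ratios of members. Of 525 values, 367 stayed within the counting interval and 143 moved beyond it. The other 15, called reversals below, changed sign where the main ratio was past 1.5-fold, whatever their own size. In fibroblasts Col3a1 ranged from 0.77 to 0.88, Col5a3 from 0.61 to 0.90 and Col11a1 from -1.84 to -1.64, past 1.5-fold under all 12 alternatives. The count of members higher in fibroblasts went from 2 to 0 at a fold of 2, since both lie between the folds, and the count lower in smooth muscle went from 4 to 1 with every cell that passes a gate, the 1 being Col11a1. Other calls of a higher level were past 1.5-fold in part of the 12: Col1a1 in 11 and Col3a1 in 10 for valve-type cells, 7 and 10 for pericytes, and Col1a1 in 11 and Col1a2 in 9 for endothelium.

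The median log2 ratio of the members in fibroblasts, 0.22, was 0.30 with every cell that passes a gate, 0.14 thinned, 0.24 with a median-ratio size factor, 0.17 with mitochondrial, haemoglobin and ribosomal protein genes out of the total, 0.16 as a mean of per-cell CPM and 0.18 without the 5% of cells with the most genes. In smooth muscle, -1.28, it was -0.11 with every cell that passes a gate, -1.68 without cells with Tcf21, Dpt or Lum and -0.87 without cells with Tnnt2, Actc1 or Myh6.

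Reversals lay in small or low classes, and their cause was not tested. In pericytes Col1a1 was -0.053 with a gate of at least 2 UMIs and -0.47 without cells with Tcf21, Dpt or Lum, and Col11a1 was 0.057 thinned. In epicardium Col5a1 was 0.15 with every cell that passes a gate. In macrophages a gate of at least 2 UMIs gave 2.77 for Col1a1, 2.54 for Col1a2, 1.31 for Col5a1 and 1.57 for Col5a2. Every cell that passes the macrophage gate gave 0.38, 0.53, 0.31 and 0.012 for the same genes. Macrophages without Tcf21, Dpt or Lum gave 0.53 for Col1a1, 0.34 for Col1a2 and 0.27 for Col5a2, each with a counting interval that includes 0. Depth limits Col11a1 outside fibroblasts, valve-type cells and pericytes. It limits Col5a3 outside fibroblasts and pericytes, in valve-type cells too, where Col5a3 had 12 and 6 UMIs.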
